A study of Mus musculus with 15 samples.

Results

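The oligoadenylate synthetase (OAS) family of the mouse was followed through 5 of its genes, Oas1b, Oas2, Oas3, Oasl1 and Oasl2, out of 19297 genes with a probe set of their own on the arrays. The members were chosen by gene symbol: a probe set counted when its annotation named 1 gene and that gene was a member, and where a gene had several, the one with the highest average of the 15 arrays would have been kept. Each member has only 1 such probe set, so these means (Oas1b 5.48, Oas2 6.69, Oas3 6.06, Oasl1 7.10 and Oasl2 6.83 on the deposited log2 scale) decided nothing. The family itself was picked with earlier results of these arrays known, and its place among all genes in the comparisons below is therefore a description.

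OAS enzymes are induced by interferon and are switched on by double-stranded RNA, a sign of viral infection. An active enzyme joins ATP into short chains of adenylate linked from the 2' to the 5' position, and these chains activate RNase L, a nuclease that cuts cellular and viral RNA. The OAS-like genes share the fold but not always the catalysis: mouse Oasl2 keeps synthetase activity, whereas Oasl1 lacks it and is known for restraining the translation of Irf7. Because interferon induces these genes, their transcripts are widely used as a readout of interferon signalling, in tumour cells too.

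RNA came from MycCap (Myc-CaP) cells, a prostate cancer line from a mouse with a Myc transgene in the prostate. The 5 groups of 3 arrays were cells with the vector alone (VEC), with wild-type Twist1 (WT), with Twist1 mutated in its Twist box (F191G), and with the AQA or DQD form of Twist1, whose names the labels do not explain. Twist1 is a transcription factor of the basic helix-loop-helix class that drives epithelial-mesenchymal transition, and the series asked how mutating the Twist box alters its effect on expression. Every group, VEC included, was transfected, selected and grown until confluent before harvest. The labels name neither the promoter of the vector nor whether the selected cells were 1 clone or a pool, and they do not say that replicates A, B and C were separate cultures. The p-values thus measure the spread between arrays, which may be technical.

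Values are log2 signals without detection calls, and their precision is limited by having 3 arrays a group. The labels give 2 batches: 8 arrays in batch A (2 each from VEC, WT and AQA, 1 each from DQD and F191G) and 7 in batch B. The array labelled WT replicate A stood apart. Over all genes its median correlation with the other arrays was 0.979, against 0.993 to 0.996 for each of the others. Its lowest correlation, 0.969, was shared with DQD replicate A. The Twist1 probe set read 6.45, 6.71 and 6.13 in VEC replicates A, B and C, against 6.75 to 6.85 in WT, 6.41 to 6.87 in AQA, 6.62 to 6.97 in DQD and 6.65 to 6.85 in F191G. All 3 WT arrays lay above the VEC arrays, while 1 array of each other form did not, and whether this probe set reads the introduced Twist1 is not given in the labels. Among prostate markers, Hoxb13 read 7.04 to 7.47 in VEC and the secretory gene Pbsn 2.15 to 2.22, and the 7 epithelial markers averaged 5.86 to 6.27 there, with Krt8 at 7.57 to 8.89 and Epcam at 5.04 to 5.15. The basal keratin gene Krt14 differed from VEC by -0.71 to -0.63 over the 4 forms and was not called (adjusted p = 0.0546 to 0.251), and its part in the results below was not tested.

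All members lie on chromosome 5 in RefSeq's annotation of GRCm38.p6, in 2 clusters. Oasl2 (114896926 to 114912245) and Oasl1 (114923143 to 114937911) are neighbours in the first. Oas2 (120730333 to 120749886), Oas3 (120753098 to 120777684) and Oas1b (120812635 to 120824163) lie in the second together with Oas1a and the genes Oas1c to Oas1h. That annotation follows the C57BL/6J genome, where Oas1b, the flavivirus resistance gene, is listed as a transcribed pseudogene.

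RefSeq promoter entries, 250 bases before to 50 bases after each annotated start, were at hand for 3 members (Oas3, Oasl1 and Oasl2) and for 5 other family genes. They were searched on both strands for GAAANNGAA, the core of the interferon-stimulated response element, whose reverse complement reads TTCNNTTTC. The core was present in 1 of the 3 member entries, that of Oas3, and in 3 of the 5 others, those of Oas1a, Oas1c and Oas1g. Over all 32851 entries of the same length, 2812 (8.56%) held it. A stricter form with a further A at the end, found in 1131 entries (3.44%), gave the same genes. The 60 bases around the matches are printed below because each of these 4 promoters holds the core as an overlapping pair that shares 3 bases, marked in capitals; every gene lies on the minus strand and is read 5′ to 3′ on its own strand.
Oas3, chr5:120777695-120777754: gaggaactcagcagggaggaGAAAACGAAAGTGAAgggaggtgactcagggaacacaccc
Oas1c, chr5:120812588-120812647: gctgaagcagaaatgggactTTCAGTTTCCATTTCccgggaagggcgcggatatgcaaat
Oas1g, chr5:120887614-120887673: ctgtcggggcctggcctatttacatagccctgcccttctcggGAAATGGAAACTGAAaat
Oas1a, chr5:120907526-120907585: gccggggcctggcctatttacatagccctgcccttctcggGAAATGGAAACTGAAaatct
The pair in Oas3, GAAAACGAAAGTGAA, occurred in no other entry of the table. The pair in the Oas1 genes, GAAATGGAAACTGAA, was the same to the letter in Oas1a, Oas1c and Oas1g and occurred in 7 of the 32851 entries, the others being those of Apol9a and Apol9b. In Oas1c it is on the opposite strand, so the printed line shows its reverse complement, and it lies in the 94 bases between the spans of Oas1c and Oas1b, 7 bases outside the Oas1b span. The windows run from -95 to -36 of the annotated start in Oas3, from -133 to -74 in Oas1c and from -60 to -1 in Oas1g and Oas1a. A match describes these letters alone.

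The synthetases Oas2 and Oas3 were lower on every vector array than on any array with WT, DQD or F191G Twist1. Oas2, a synthetase that works as a dimer, read 6.16, 4.75 and 4.02 in VEC replicates A, B and C. It read 6.61, 7.37 and 7.54 in WT, 6.91, 8.02 and 8.48 in DQD, 7.27, 7.58 and 7.69 in F191G, and 7.10, 5.41 and 5.43 in AQA. All 9 arrays of WT, DQD and F191G exceeded the highest VEC array, and of the AQA arrays replicate A alone did so. Oas3, the long form built of repeated OAS units, read 5.74, 4.73 and 4.62 in VEC. Its values were 5.98, 6.71 and 6.49 in WT, 6.37, 7.08 and 7.15 in DQD, 6.31, 6.81 and 6.84 in F191G, and 6.42, 4.86 and 4.84 in AQA. The same arrays stood above VEC as for Oas2, with WT replicate A only 0.24 above the highest VEC array. AQA replicates B and C lay inside the range of the VEC arrays for both genes. How often genes at large separate from VEC in this way was not counted, here or for the genes below.

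Oas1b had the tightest vector values of these 3 genes and, in WT and DQD, the widest gap above the vector arrays. It read 4.73, 4.33 and 3.99 in VEC, 5.57, 6.12 and 5.71 in WT, 5.67, 6.38 and 6.18 in DQD, and 5.80, 6.18 and 6.10 in F191G. The lowest WT array lay 0.84 above the highest VEC array, and in DQD and F191G that gap was 0.94 and 1.07. The AQA values were 5.91, 4.58 and 4.97, so that 2 of the 3 AQA arrays exceeded every VEC array and replicate B lay among them. Oas1b was the only member for which AQA replicate C lay above VEC.

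Of the OAS-like pair, Oasl2 spanned a wide range of values and Oasl1 a narrow one. Oasl2 read 6.11, 4.97 and 4.79 in VEC, 6.87, 7.73 and 7.57 in WT, 7.23, 7.90 and 8.33 in DQD, and 7.17, 7.60 and 7.83 in F191G. Its AQA values were 7.28, 5.59 and 5.48. Again all 9 arrays of WT, DQD and F191G, and AQA replicate A, stood above every VEC array, and AQA replicates B and C lay within the VEC range. Oasl1 read 6.88, 6.52 and 6.56 in VEC, 7.24, 7.53 and 7.37 in WT, 7.12, 7.51 and 7.53 in DQD, and 7.08, 7.46 and 7.43 in F191G. It read 7.42, 6.53 and 6.38 in AQA, where replicate A was above and replicate C below all VEC arrays. The smaller spread of Oasl1 does not show that its transcript changed less than the others, since probe sets differ in their response and the sizes were not compared by a test.

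**Figure D1:**
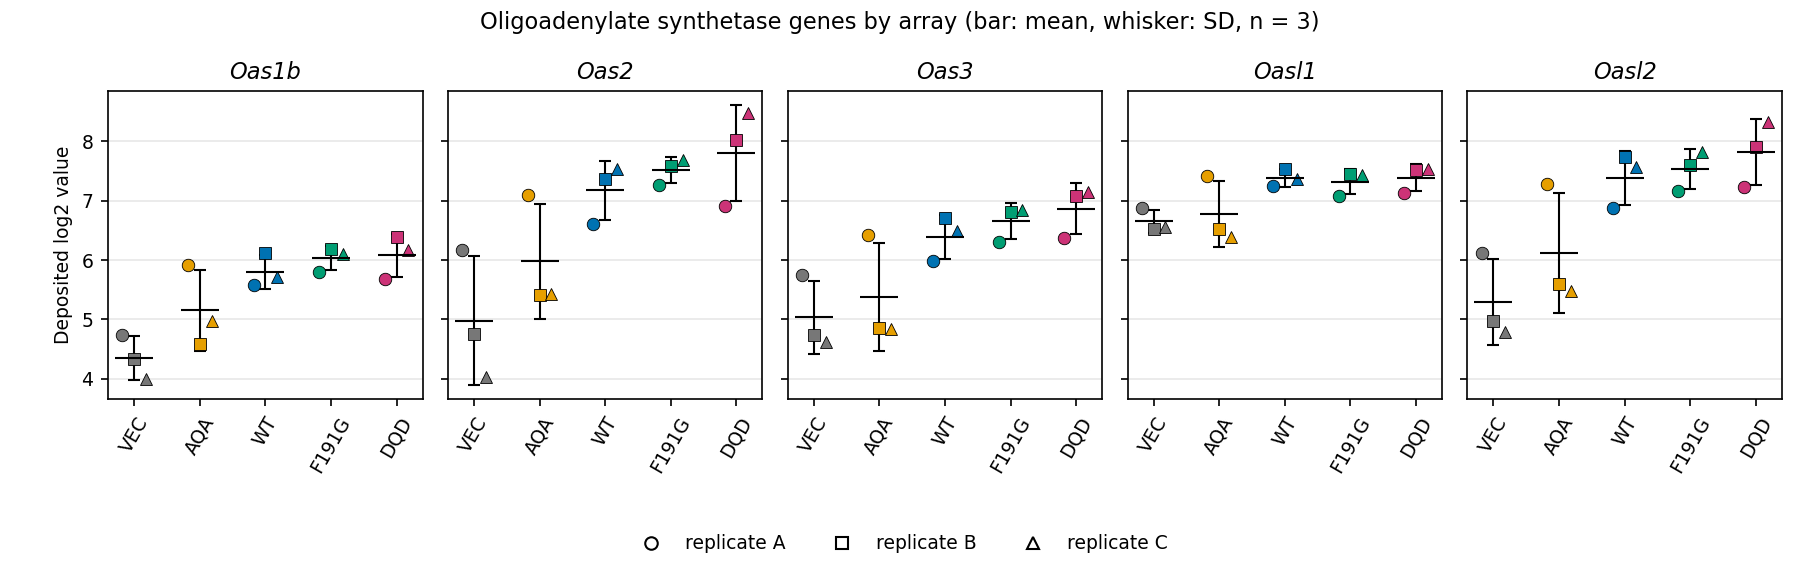
Deposited log2 values of the 5 genes on each of the 15 arrays (y axis), by group (x axis); symbols mark replicates A, B and C, bars the group mean and whiskers the SD (n = 3). For every gene the 9 arrays of WT, F191G and DQD lie above the highest VEC array, and in AQA replicate A stands away from replicates B and C. The share of all genes separated from VEC in this way was not counted.

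In each member the group means were ordered alike at the low end, with VEC lowest and AQA next, and DQD was highest. For Oas2 the means ± SD (n = 3) were 4.98 ± 1.09 in VEC, 5.98 ± 0.97 in AQA, 7.17 ± 0.49 in WT, 7.51 ± 0.22 in F191G and 7.80 ± 0.81 in DQD. Oas1b followed the same order, from 4.35 ± 0.37 in VEC through 5.15 ± 0.68, 5.80 ± 0.28 and 6.03 ± 0.20 to 6.08 ± 0.37 in DQD, as did Oas3 (5.03 ± 0.62, 5.37 ± 0.91, 6.39 ± 0.37, 6.66 ± 0.30 and 6.87 ± 0.43) and Oasl2 (5.29 ± 0.72, 6.12 ± 1.01, 7.39 ± 0.46, 7.53 ± 0.33 and 7.82 ± 0.56). For Oasl1 the order was VEC 6.65 ± 0.20, AQA 6.78 ± 0.56, F191G 7.32 ± 0.21, WT 7.38 ± 0.15 and DQD 7.39 ± 0.23. Neighbours at the high end, WT, F191G and DQD, differed by less than 1 SD of either group in Oasl1 and by no difference that passed the test in any member, as given below. In both VEC and AQA, replicate A was the highest array of its group for every member.

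Against the vector, WT Twist1 was accompanied by higher OAS transcripts, and 4 of the 5 members passed the test (limma, adjusted p under 0.05 over all genes, termed called). In the same comparison 12.8% of all genes were called, 1362 higher and 1104 lower. Oas2 rose by 2.20 on the log2 scale (SE 0.564, 4.58-fold, adjusted p = 0.0263) and Oasl2 by 2.10 (SE 0.475, 4.28-fold, adjusted p = 0.0166). These differences ranked 17 and 20 among all genes by size of the rise. Oas1b rose by 1.45 (SE 0.301, 2.73-fold, adjusted p = 0.0127) and Oas3 by 1.36 (SE 0.411, 2.57-fold, adjusted p = 0.0468). Oasl1 was 0.73 higher (95% interval 0.24 to 1.22, adjusted p = 0.0507) and missed the threshold. The median difference was 1.45 for the members and -0.0093 for all genes. Within batch A, with 2 arrays against 2, the members were 0.69 to 1.76 higher, and within batch B, with 1 against 1, 0.81 to 3.52 higher.

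The calls changed with single arrays. Without VEC replicate C no member was called (5 at an unadjusted p under 0.05), while the count over all genes fell from 2466 to 128. Without VEC replicate B or without WT replicate C there were 2 members (Oas1b and Oasl2), with 1693 and 2756 of all genes. Without WT replicate A there were 3 members, with 844 of all genes. Of all genes 17 and 10 were called with the Twist1 value as a covariate and with only the 6 arrays of these groups. In these 2 fits 0 members were called, against 3 and 5 at an unadjusted p under 0.05. In batch A alone the count was also 0, with 2 at an unadjusted p under 0.05, and 0 genes of all were called there.

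The DQD form gave the largest differences from the vector. Here 3 of 5 members were called, all higher, against 0.814% of all genes. Oas2 rose by 2.82 (SE 0.578, 7.08-fold, adjusted p = 0.0493), the second largest rise of all genes. Oasl2 rose by 2.53 (SE 0.486, 5.77-fold, adjusted p = 0.0474, rank 7) and Oas1b by 1.73 (SE 0.309, 3.31-fold, adjusted p = 0.0454, rank 16). Oas3 was 1.83 higher (95% interval 0.92 to 2.74, adjusted p = 0.0544) and Oasl1 0.74 higher (0.24 to 1.24, adjusted p = 0.0943). The member median was 1.83 and that of all genes -0.0471. Within batch A (1 array against 2) the members were 0.42 to 1.68 higher and within batch B (2 against 1) 0.97 to 4.23 higher. The adjusted p-values of the 3 called members sat just under the threshold. Leaving out any DQD array, VEC replicate B or VEC replicate C gave 0 calls, with all 5 members at an unadjusted p under 0.05 each time. Those fits called 1 to 20 of all genes. The count of members was 0 also with the Twist1 covariate, with only the arrays compared, after renewed quantile normalization and with a variance trend. There 1, 12, 1 and 53 of all genes were called.

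For the Twist box mutant F191G all 5 members had higher means than the vector, by 0.67 to 2.54, and an unadjusted p under 0.05, but none was called. Over all genes 0.0985% were called in this comparison, 19 genes, so that few genes of any kind passed. Oas2 was 2.54 higher (SE 0.578, 5.80-fold, adjusted p = 0.13), which ranked 4 among all genes, and Oasl2 was 2.24 higher (SE 0.486, adjusted p = 0.117, rank 6). Oas1b was 1.68 higher (95% interval 1.01 to 2.34, adjusted p = 0.075), Oas3 1.63 (0.72 to 2.53, adjusted p = 0.18) and Oasl1 0.67 (0.17 to 1.17, adjusted p = 0.297). The member median was 1.68, against -0.0271 for all genes. Within batch A the members were 0.38 to 1.81 higher and within batch B 0.89 to 3.62 higher. Without a batch term Oas1b was called, with 86 of all genes. That fit gave the members the same differences as the main fit and only had more residual degrees of freedom. Without WT replicate A in the fit Oas1b was called too, with 42 of all genes. With the 5 arrays of replicate letter A left out, a fit added after the data were seen, all 5 members and 87 of all genes were.

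The AQA form showed the smallest differences and the widest spread between replicates. No member was called against the vector, 1 (Oas1b) had an unadjusted p under 0.05, and 0.881% of all genes were called. Oas2 was 1.001 higher (95% interval -0.22 to 2.22, adjusted p = 0.411), Oasl2 0.83 (-0.20 to 1.85, adjusted p = 0.422) and Oas1b 0.80 (0.15 to 1.45, adjusted p = 0.218). Oas3 was 0.34 higher (-0.55 to 1.23, adjusted p = 0.716) and Oasl1 0.13 (-0.36 to 0.61, adjusted p = 0.816). All of these intervals but that of Oas1b include 0, and those of Oas1b and Oas2 reach the difference seen with WT. Without AQA replicate A the differences of Oas3 and Oasl1 became -0.21 each. Within batch A the members were 0.28 to 0.89 higher and within batch B, with 1 array against 1, they ranged from -0.17 to 1.403.

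With the 4 forms averaged and set against the vector, 3 members were called (Oas1b, Oas2 and Oasl2), against 1.18% of all genes. The average differences were 1.41 for Oas1b (SE 0.241, adjusted p = 0.0211), 2.14 for Oas2 (SE 0.45, adjusted p = 0.0429) and 1.92 for Oasl2 (SE 0.379, adjusted p = 0.0339). Oas3 was 1.29 higher (adjusted p = 0.0722) and Oasl1 0.57 (adjusted p = 0.124). Without VEC replicate B or VEC replicate C no member was called, with 5 and 4 at an unadjusted p under 0.05 and 141 and 3 of all genes called. Without replicate B or C of DQD or of F191G only Oas1b was called, with 96 to 134 of all genes. The comparisons with VEC share the 3 VEC arrays, so their values are set side by side and are not independent of each other.

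**Figure D2:**
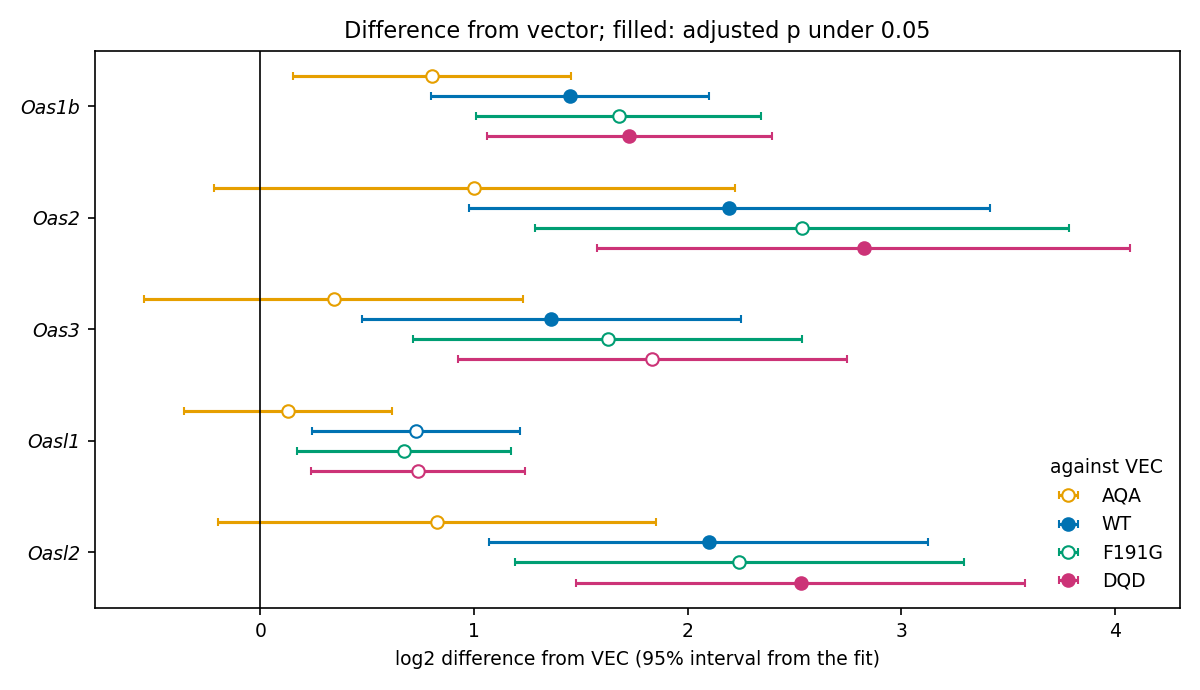
Log2 difference from VEC (x axis, with 95% intervals from the fit) of each gene (y axis) for the 4 Twist1 forms (colours); filled points have an adjusted p under 0.05. WT passes for 4 genes and DQD for 3, while AQA and F191G pass for none although the F191G intervals lie above 0.

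Between the forms, no member was called in any of the 6 comparisons. AQA was lower than WT in all 5 members, by a median of -1.02, with values from -1.27 in Oasl2 (95% interval -2.30 to -0.25, adjusted p = 0.12) to -0.60 in Oasl1 (-1.09 to -0.12, adjusted p = 0.122). In that comparison 0.726% of all genes were called and 3 members had an unadjusted p under 0.05. The members were -0.87 to -0.41 in batch A and -2.11 to -0.74 in batch B. DQD against WT called 24.5% of all genes but 0 members, 0 also at an unadjusted p under 0.05. Its differences ran from 0.0077 in Oasl1 (-0.49 to 0.51) to 0.63 in Oas2 (-0.62 to 1.88). F191G against WT, which sets the Twist box mutant beside the wild type, called 7.13% of all genes and 0 members. Again 0 members had an unadjusted p under 0.05. Oas2 differed by 0.34 (-0.91 to 1.59), Oas3 by 0.26 (-0.65 to 1.17), Oas1b by 0.23 (-0.44 to 0.90), Oasl2 by 0.14 (-0.91 to 1.20) and Oasl1 by -0.0582 (-0.56 to 0.44). Intervals of this width do not show that the forms act alike.

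The signs of these small differences were not steady between batches. In batch A, 1 of 5 members was higher in DQD than in WT (range -0.26 to 0.0216), and in batch B all 5 were (0.15 to 0.71). For F191G against WT the corresponding ranges were -0.31 to 0.27 in batch A, with 1 of 5 higher, and 0.0764 to 0.43 in batch B, with 5 of 5 higher. The array that stands apart, WT replicate A, is in batch A.

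DQD and F191G against AQA gave larger differences. DQD was higher by 1.82 in Oas2 (SE 0.578, adjusted p = 0.195), 1.70 in Oasl2 (SE 0.486, adjusted p = 0.159) and 1.49 in Oas3 (SE 0.421, adjusted p = 0.157). All 5 members had an unadjusted p under 0.05, none was called, and 0.0259% of all genes were called. F191G was higher than AQA by 0.54 in Oasl1 to 1.53 in Oas2 (adjusted p = 0.26 to 0.391 over the members), again with 5 at an unadjusted p under 0.05, 0 called and 0.0104% of all genes called. F191G against DQD gave -0.29 in Oas2 to -0.0492 in Oas1b, 0 members called or at an unadjusted p under 0.05, and 0.00518% of all genes called. Without the letter-A arrays, a fit added after the data were seen, all 5 members were called in DQD and F191G against AQA. In AQA against WT 4 were (all but Oas1b). Of all 19297 genes 42, 43 and 33 were called in these 3 comparisons.

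The 5 genes moved together from array to array. Pearson correlations between pairs of members over the 15 arrays ran from 0.918 (Oas2 and Oasl1) to 0.988 (Oas3 and Oasl2), and from 0.84 to 0.988 once the group means had been taken out. The points share groups and batches, so the values are descriptive. The mean deviation of the 5 genes from the VEC mean summarises each array: it was 0.67, -0.20 and -0.46 in VEC replicates A, B and C, 1.20, 1.83 and 1.67 in WT, 1.399, 2.12 and 2.27 in DQD, and 1.47, 1.87 and 1.92 in F191G. In AQA it was 1.57, 0.13 and 0.16, so that the array labelled AQA replicate A lay above the WT, DQD and F191G arrays of its own letter and AQA replicates B and C lay close to VEC. Against the VEC array of the same letter, WT differed by 0.53 for A, 2.03 for B and 2.14 for C. The corresponding values were 0.73, 2.32 and 2.74 for DQD, 0.80, 2.07 and 2.38 for F191G, and 0.90, 0.34 and 0.62 for AQA. The letter-A arrays, all of them in batch A, thus spanned a narrower range of OAS signal than the others. What the letter stands for is not given in the labels, and its part in the differences was not tested.

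**Figure D3:**
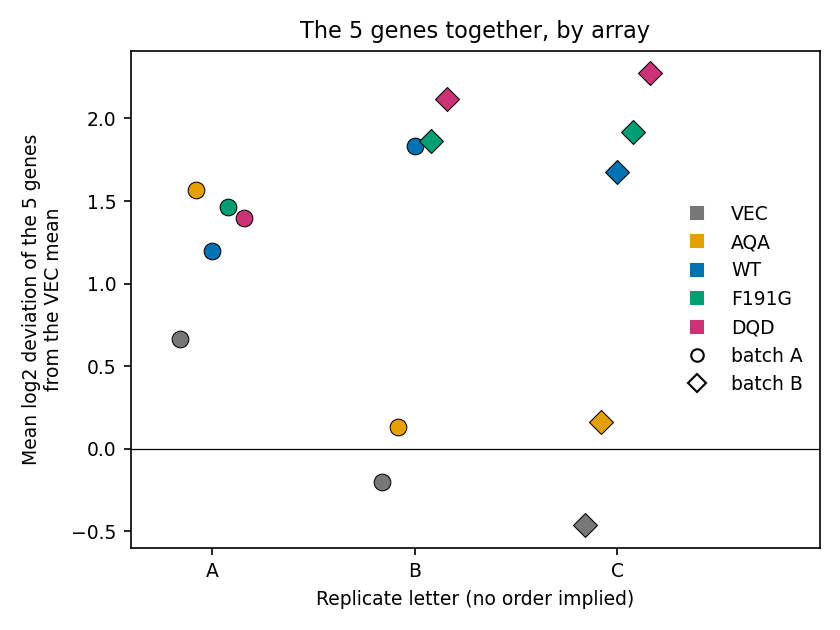
Mean log2 deviation of the 5 genes from the VEC mean (y axis) for each array, by replicate letter (x axis); colours mark the groups and symbols the array batch. Among letter-A arrays the values run from 0.67 to 1.57, and among B and C arrays VEC and AQA lie at or below 0.16 while WT, F191G and DQD lie at or above 1.67.

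Of the 6 other family genes with a probe set of their own, 2 were called in WT, where 12.8% of all genes were, and 4 were called in no comparison with VEC. Oas1a, a catalytically active synthetase, was called in WT (0.996 higher, SE 0.274, 1.99-fold, adjusted p = 0.0335), with means of 5.66 ± 0.36 in VEC and 6.66 ± 0.14 in WT. It was 1.10 higher in DQD (adjusted p = 0.0662), 1.02 in F191G (adjusted p = 0.209) and 0.33 in AQA (adjusted p = 0.582). Oas1c, the immediate neighbour of Oas1b, was called in WT (0.55 higher, SE 0.157, adjusted p = 0.0384). All 12 arrays with a Twist1 form exceeded its highest VEC array, the lowest AQA array by only 0.0081, a separation not counted over all genes. Oas1d, Oas1e, Oas1f and Oas1h had group means between 3.41 and 5.02 and differences from VEC between -0.17 and 0.10, with 0 called. Several of these genes are close copies of each other, and whether probes of one read another was not tested.

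The genes beside the clusters were described in the same way. Of 16 measured neighbours, 4 on each side of each cluster, the differences from VEC lay between -0.14 and 0.38 in WT, -0.21 and 0.13 in AQA, -0.23 and 0.13 in DQD, and -0.12 and 0.16 in F191G. Called among them were Mlec (0.32, SE 0.0699, adjusted p = 0.0144) and Sppl3 (0.26, SE 0.0717, adjusted p = 0.0323) in WT, and 0 in each of the other 3 forms against VEC. These 2 of 16 are a share close to the 12.8% of all genes called in WT. The search of promoters found the response element core in 1 of the 15 neighbours with an entry, Rpl6, a ribosomal protein gene.

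**Figure D4:**
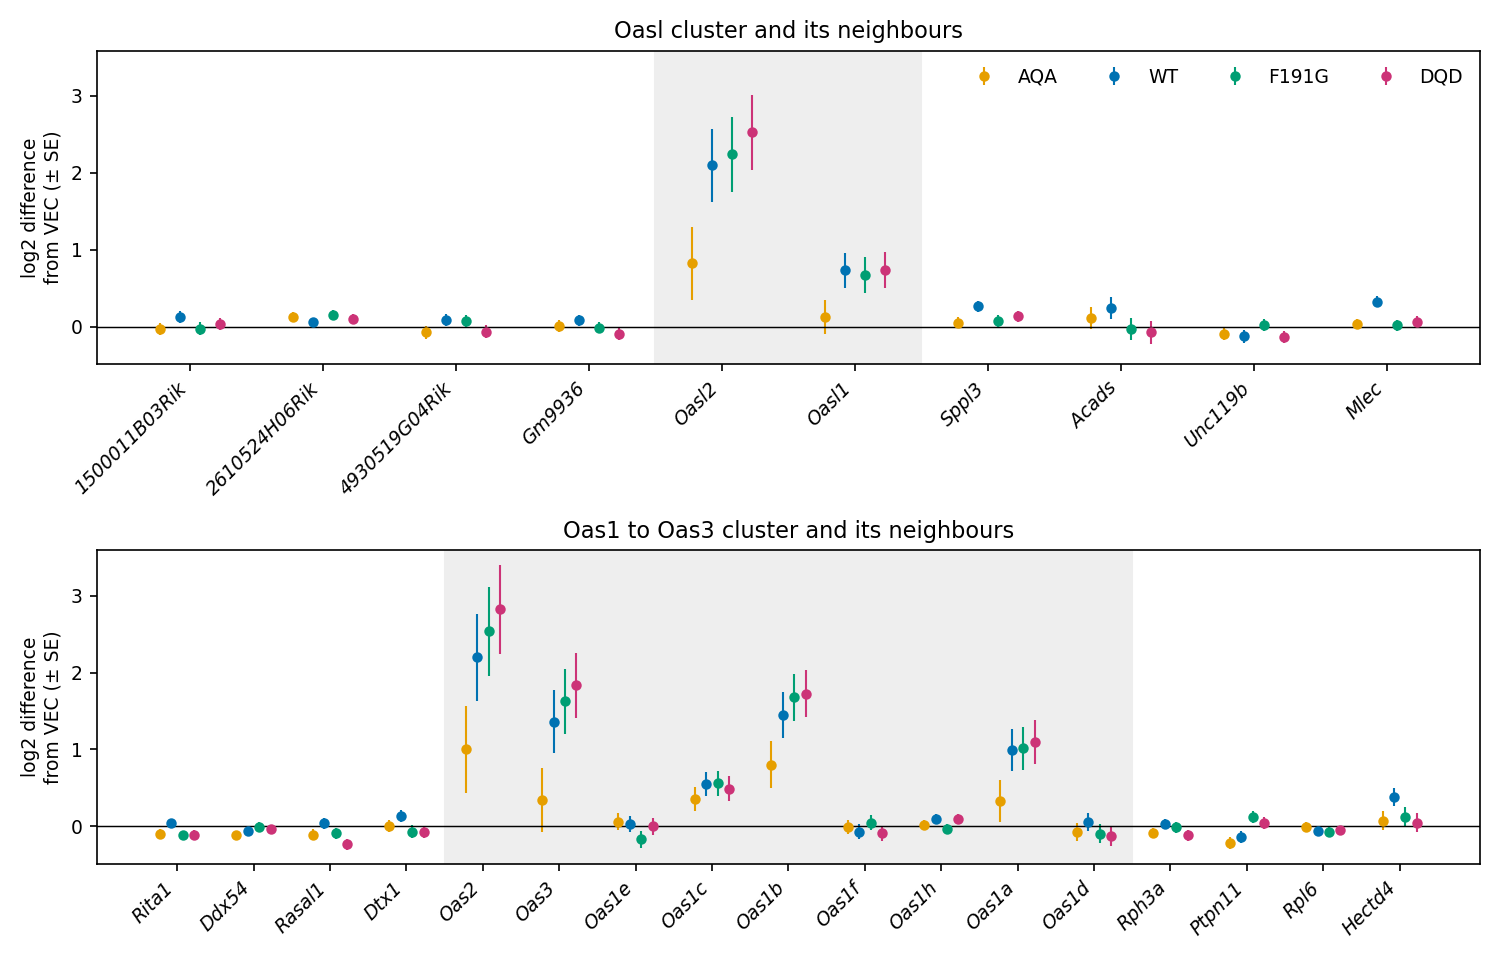
Log2 difference from VEC (y axis, ± SE) of the family genes (shaded) and of their neighbours in the order of the chromosome (x axis, not to scale), for the 4 Twist1 forms. Neighbours stay between -0.23 and 0.38, and within the second cluster Oas2, Oas3, Oas1b, Oas1a and Oas1c lie above Oas1d, Oas1e, Oas1f and Oas1h in each form.

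The pathway around the synthetases was described from a list of 61 further genes, of which 49 were measured. In WT against VEC 10 of the 49 were called higher and 2 lower, with a median of 0.0695, where 12.8% of all genes were called (1362 higher and 1104 lower). Downstream of the 2'-5' chains, Abce1, an inhibitor of RNase L, fell by 0.21 (adjusted p = 0.0495) and Pde12, which degrades the chains, fell by 0.23 (adjusted p = 0.0265). The RNase L gene itself was not analysed here. Among sensors and adaptors, Ddx58, the RIG-I sensor of viral RNA, rose by 1.9965 (SE 0.371, adjusted p = 0.0091), the adaptor gene Ticam1 by 0.71 (adjusted p = 0.0287) and Mavs by 0.26 (adjusted p = 0.0169). Eif2ak2, the double-stranded RNA dependent kinase PKR, was 0.59 higher (adjusted p = 0.0999) and the RNA editor Adar 0.45 higher (adjusted p = 0.0961). Listed genes were named when called or among the smallest p of their role, so genes of the same roles that stayed flat are missing above. The means in VEC and WT were 4.52 and 4.48 for Ifih1, 5.23 and 5.22 for Dhx58, and 5.74 and 5.69 for Zbp1. These genes were named after their values were seen.

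None of the 15 measured interferon ligand genes was called in any form against VEC with all arrays in the fit. The interferon beta gene Ifnb1 read 4.06 to 4.36 over the 15 arrays and differed by -0.0025 between WT and VEC (SE 0.0732). At the receptors, Ifnar1 rose by 0.32 (adjusted p = 0.0185), Ifngr1 by 0.40 (adjusted p = 0.012) and Ifngr2 by 0.63 (adjusted p = 0.0183) in WT. Of the transcription factors, Irf7 rose by 2.18 (SE 0.585, adjusted p = 0.0307), Irf9 by 1.12 (SE 0.214, adjusted p = 0.00989) and Stat2 by 0.997 (SE 0.191, adjusted p = 0.00992). The feedback inhibitor Usp18 rose by 2.22 (SE 0.645, adjusted p = 0.0409). The count for WT depended on single arrays. Without WT replicate A it was 7, where Abce1, Pde12, Mavs, Ticam1, Ifnar1 and Ifngr2 were no longer called and Eif2ak2 was. Without VEC replicate C it was 0, with 12 at an unadjusted p under 0.05. These 2 fits called 844 and 128 of all genes.

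With DQD 3 of the 49 were called, all higher, against 0.814% of all genes: Ddx58 by 1.92 (SE 0.38, adjusted p = 0.048), Irf9 by 1.11 (SE 0.219, adjusted p = 0.048) and Eif2ak2 by 1.16 (SE 0.227, adjusted p = 0.0479). Usp18 was 2.77 higher (adjusted p = 0.0601) and Irf7 2.28 (adjusted p = 0.069). In either direction 7 were called without WT replicate A in the fit, with Ifna13, Irf1, Irf7 and Usp18 added, where 616 of all genes were called. Without any 1 of the DQD arrays, VEC replicate B or VEC replicate C, 0 were called (12 to 16 at an unadjusted p under 0.05). There 1 to 20 of all genes were called. With F191G and with AQA 0 of the 49 were called. In F191G, Usp18 was 2.62 higher (adjusted p = 0.169), Irf7 2.19 (adjusted p = 0.206) and Ddx58 1.93 (adjusted p = 0.0947). In AQA the same genes were 0.82, 0.25 and 0.99 higher (adjusted p = 0.556, 0.872 and 0.217). The medians of the 49 genes were 0.0138 in DQD, -0.0099 in F191G and 0.0053 in AQA.

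Between the mutants and WT, the pathway genes were called about as often as genes at large in DQD. There 12 of the 49 were called, 7 lower and 5 higher, against 24.5% of all genes. The higher ones included all 3 measured genes listed with the 2'-5' chains (Abce1, Pde12 and Cnp), with a median of 0.30. DQD was lower than WT in Irf1 by -1.84 (adjusted p = 0.0188), Ifngr2 by -0.88 (adjusted p = 0.0085), Ticam1 by -0.73 (adjusted p = 0.0216) and Socs3 by -0.45 (adjusted p = 0.0355). In F191G against WT 5 were lower and 2 higher, where 7.13% of all genes were called. Among the higher ones was 1 of the 3 genes listed with the 2'-5' chains, whose median was 0.19. F191G was lower than WT in Irf1 by -1.67 (adjusted p = 0.0483), Ticam1 by -0.80 (adjusted p = 0.0361) and Socs3 by -0.65 (adjusted p = 0.0313). In AQA against WT 0 of the 49 were called higher and 1 lower, a feedback gene, where 0.726% of all genes were called. Socs3 averaged 8.01 in AQA and 8.67 in WT. Irf1 was named here after its values were seen.

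**Figure D5:**
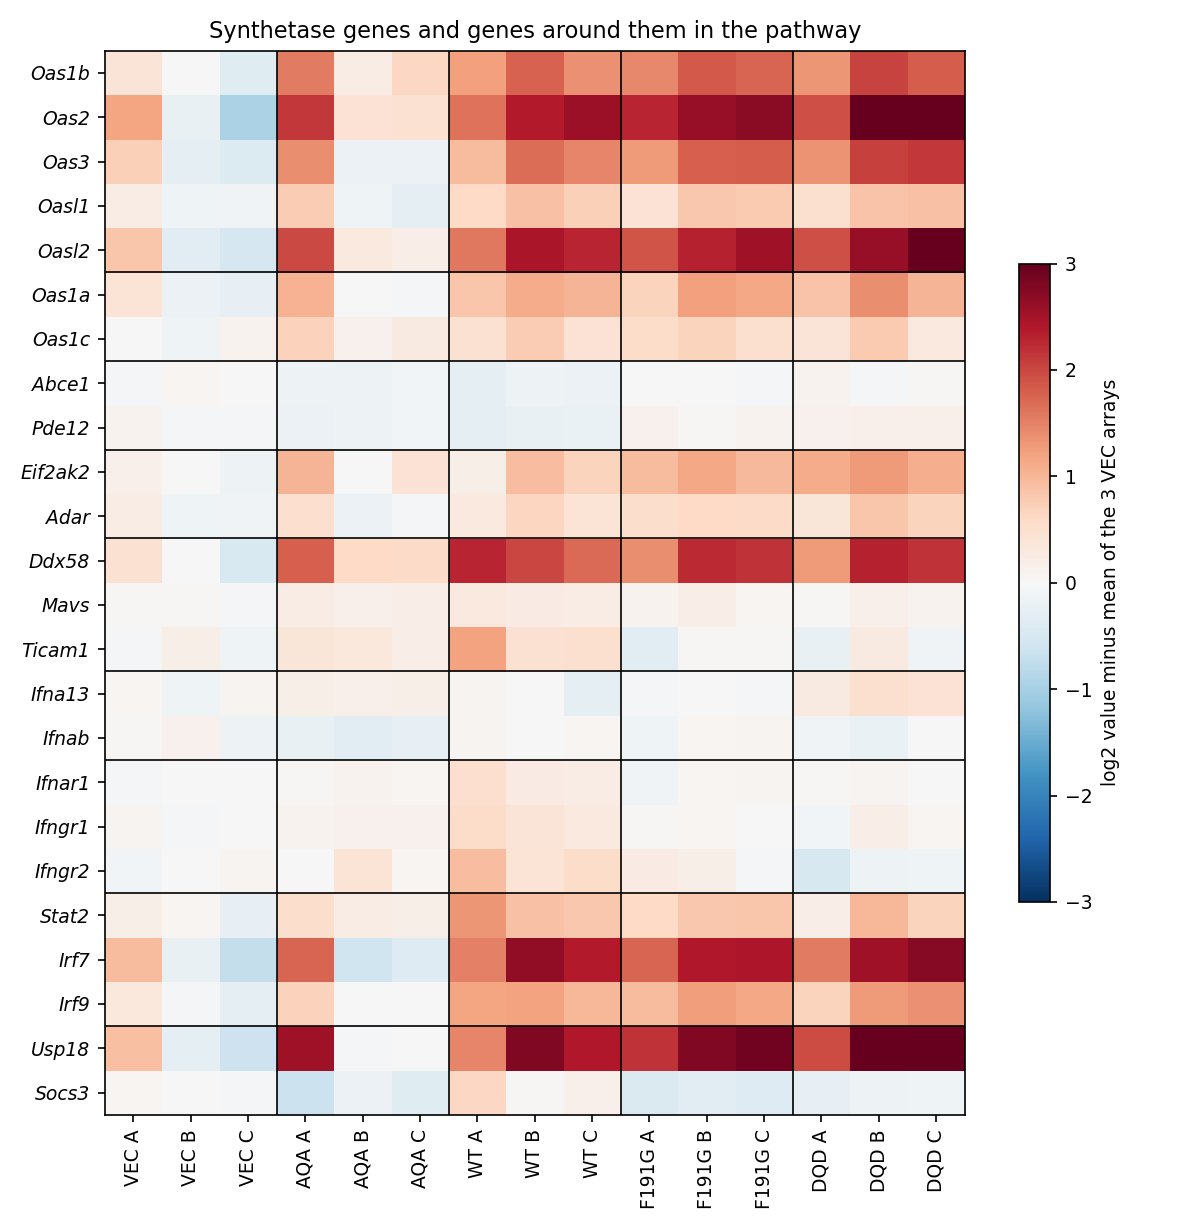
Log2 value minus the mean of the 3 VEC arrays (colour scale, saturated at -3 and 3) for the OAS genes and called or top-ranked pathway genes (rows, grouped by role) on each array (columns). Irf7 and Usp18 follow the synthetases array by array, including VEC replicate A and AQA replicate A, while Ticam1 and Ifngr2 are highest in WT replicate A.

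The genes whose 15 array values were most like the mean of the 5 members were Rtp4 (r = 0.997), Usp18 (0.994), Xaf1 (0.983), Ifit1 (0.983), Bst2 (0.982), Irf7 (0.978), Gbp3 (0.974) and Oas1a (0.971). They were picked for following the members over these same arrays, group differences included, so their calls follow largely from the choice. All 8 were called in WT against VEC, where 12.8% of all genes were, with differences from 0.96 in Bst2 to 2.22 in Usp18. Xaf1 was called in DQD (1.69 higher, limma adjusted p = 0.0479), where 0.814% of all genes were. With the group means taken out, so that only the spread among replicates counts, the leaders were Irf7 (0.995), Rtp4 (0.995), Usp18 (0.990), Aga (0.981), Ifit1 (0.970), Bst2 (0.960), Xaf1 (0.960) and Tap1 (0.954). Of these, 6 appear in both sets of 8. Aga, a lysosomal amidase, differed from VEC by 0.0097 in WT (SE 0.0608) and was thus alike only within groups. Its arrays read 4.30 to 4.54, with group SDs from 0.02 in WT to 0.09 in AQA, so that likeness rests on very small deviations. These correlations were selected as the highest of all genes and carry no test.

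Markers of other cells were set beside these results. The 8 measured haematopoietic markers averaged 5.18 to 5.24 in VEC, 5.20 to 5.29 in WT, 5.10 to 5.22 in AQA, 5.10 to 5.13 in DQD and 5.12 to 5.14 in F191G, with the pan-leukocyte gene Ptprc at 4.61 to 4.73 in VEC and 4.51 to 4.64 in WT. Of these 8, Cd68 alone was called, in WT (0.61 higher, adjusted p = 0.0269). The 3 plasmacytoid dendritic cell markers averaged 7.33 to 7.62 in VEC, 7.98 to 7.99 in WT, 7.503 to 7.77 in AQA, 7.70 to 7.91 in DQD and 7.74 to 7.92 in F191G. Within this list Siglech, its most specific gene, read 5.52 to 5.68 in VEC and 5.56 to 5.59 in WT, whereas Bst2, which interferon also induces, rose by 0.96 (adjusted p = 0.0215) and Tcf4 by 0.56 (adjusted p = 0.00546) in WT. The 3 endothelial and 5 fibroblast markers had 0 calls against VEC. The part of these markers in the OAS differences was not tested, and in bulk RNA more cells with a transcript and more transcript per cell cannot be told apart.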

How the data were processed

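Biotin-labelled RNA (Affymetrix WT kit, per the labels) was measured on 15 arrays, 3 per group. The deposited values are log2 signals of 23811 probe sets, made by the authors with RMA and examined with limma, per the submitters' processing notes (versions not given in the sources used here). A further normalization, by the level of Twist1, is named in the design text without its form. Whether the deposited values include it is unknown, which limits what the Twist1 readings and the Twist1 covariate mean. Probe sets with 1 gene symbol in the platform annotation (20852; 1440 have several, 1519 are not listed) were kept, with the highest mean per gene, leaving 19297 genes without a filter on dim signals. Group and array batch entered 1 linear model over the 15 arrays (limma 3.58.1, R 4.3.3; 9 residual and 3.93 prior degrees of freedom), with p-values adjusted by Benjamini-Hochberg over all genes, and checked on simulated data. Levels are means ± SD, differences log2 with SE. The members' fitted differences from VEC equal the differences of their deposited group means, so the batch term did not move them. This held also for DQD and F191G, whose mix of batches differs from that of VEC. For Oas2 the means were 7.8033 in DQD and 4.9788 in VEC, and the fitted difference was 2.8245. Whether batch had been removed before deposit was not tested. Named genes were the members, other family genes, pathway genes called against VEC or with the 2 smallest p of their role, 4 neighbours on each side of a cluster, and the 8 genes most correlated with the members by each of 2 measures. Members, lists, tests and alternatives were chosen with earlier results of these data known. Alternatives were no batch term, the replicate letter as a block, a Twist1 covariate, other normalization, filtering, variance or weighting settings, each batch alone, and leaving out arrays. Replicate letters paired the arrays of DQD and F191G by the check used (all 3 correlations of same-letter deviations over 0.1; each pair also shares a batch) and of no other groups. Promoters came from RefSeq (GRCm38.p6). Figures used matplotlib 3.10.9.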

Additional observations from a re-analysis of the deposited data

Results flagged for a closer look

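One probe set annotated to both Oas1a and Oas1g names no single gene and entered none of the comparisons above, yet its signal exceeded that of the vector control arrays in every form. It read 5.57, 4.86 and 4.32 in VEC replicates A, B and C, against 6.29, 7.17 and 7.30 in WT, 7.36, 5.66 and 5.70 in AQA, 7.29, 7.76 and 8.04 in DQD, and 7.03, 7.55 and 7.57 in F191G. All 12 arrays with a Twist1 form lay above the highest VEC array, AQA replicates B and C by the least. How many of all probe sets separate in this way was not counted. The difference from VEC was 2.004 in WT (limma adjusted p = 0.0176 over all probe sets), 1.32 in AQA (adjusted p = 0.177), 2.78 in DQD (adjusted p = 0.0388) and 2.47 in F191G (adjusted p = 0.0807). Which of the 2 genes the signal comes from was not tested.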

How the results depend on the processing

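Of 735 alternative values of single members in the comparisons with VEC or WT, 603 kept their direction and side of the threshold, 64 lost the call, 37 gained it and 31, none of them called, changed sign. The alternatives without the letter-A arrays and those on pathway counts were chosen after seeing the data. In WT against VEC the 4 calls became 0 with the Twist1 covariate, with only the compared arrays and in batch A alone, and ranged from 0 to 4 with 1 array left out. In that comparison 17 of all genes were called with the covariate and 10 with only the compared arrays. The 3 calls in DQD against VEC became 0 with the Twist1 covariate, only the compared arrays, renewed quantile normalization or a variance trend. They became 5 without letter-A arrays, with 0 to 4 on leaving out 1 array. The first 5 of these fits called 1, 12, 1, 53 and 75 of all genes. For F191G the 0 calls became 1 without a batch term or without WT replicate A, and 5 without letter-A arrays (86, 42 and 87 of all genes). The fit without a batch term left the members' differences as they were and only had more residual degrees of freedom. The F191G calls stayed 0 on leaving out any 1 array of its own groups. With the forms averaged, 3 became 0 with the Twist1 covariate, 1 with a variance trend and 5 without letter-A arrays (3, 193 and 302 of all genes). On leaving out 1 array they ranged from 0 to 4. AQA against VEC went from 0 to 1 with array weights, where 944 of all genes were called in place of 170. Between forms, leaving out the letter-A arrays gave 4 calls in AQA against WT, 0 in DQD against WT and 5 in DQD or F191G against AQA. Batch B held 1 array each of VEC, WT and AQA, and batch A 1 each of DQD and F191G. Within 1 batch, calls in comparisons with such a group would rest on the spread of other groups and are not given. The pathway count in WT against VEC was 7 without WT replicate A and 0 to 10 over single arrays left out. In DQD against VEC it was 7 without WT replicate A, 8 without letter-A arrays and 0 to 3 over single arrays of the compared groups. The cause of these changes was not tested.

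Sign changes were small. In AQA against VEC, Oas3 was -0.024 and Oasl1 -0.0535 with the Twist1 covariate, and Oasl1 was -0.1708 in batch B alone and -0.0792 without letter-A arrays; over single arrays left out they ran from -0.2086 to 0.7157 and from -0.2110 to 0.3739. In DQD against WT, Oasl1 was -0.055 with only the compared arrays, -0.0577 without WT replicate A, -0.0242 after quantile normalization and -0.1586 with array weights (-0.0599 to 0.2067 over single arrays left out), and Oas1b was -0.0358 with array weights. In batch A alone DQD against WT was -0.1712 for Oas1b, -0.082 for Oas2, -0.2648 for Oasl1 and -0.0748 for Oasl2. In F191G against WT, Oasl2 was -0.1017 without WT replicate A, -0.0349 with array weights and -0.1282 in batch A alone (-0.1017 to 0.4155 over single arrays left out). There Oasl1 was 0.0036 after median centring, 0.0764 in batch B alone and 0.0388 without letter-A arrays (-0.1237 to 0.1219 over single arrays left out), and in batch A alone Oas1b was -0.0434 and Oas3 -0.0357.

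Of 30 same-letter pairs of arrays, 6 had deviations from the group means that correlated above 0.1 (range -0.85 to 0.225). All 3 pairs of DQD and F191G were among them (0.17, 0.22 and 0.18), and no other 2 groups had all 3. The block changed no call in F191G against DQD, with 0 members called and 0 at an unadjusted p under 0.05. With the letter as a replicate block, 3 members were called in WT against VEC with or without the batch term (1523 and 1961 of all genes). In DQD against VEC 0 were called either way (5 at an unadjusted p under 0.05), with 1 and 2 of all genes. With the forms averaged the block left 2 calls without the batch term and 0 with it, and Oasl1 in DQD against WT was -0.0945 with both. The number of arrays and the batches limit the precision, and signal over background was not assessed.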
